A study of Mus musculus with 9 samples.

Results

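The primitive endoderm is the first endoderm of the mouse embryo, and stem cells taken from the inner cell mass next to it can start its programme when pluripotency weakens. The genes described here are 10 regulators and receptors of that lineage, chosen by gene symbol: the transcription factors Gata6, Gata4, Sox17, Sox7, Foxa2 and Hnf4a, the receptors Pdgfra, Lrp2 and Cubn, and the endocytic adaptor Dab2. All 10 were measured, each by 1 probe set, among 22180 genes tested. Their RNA was compared in mouse embryonic stem cells on 9 Affymetrix arrays, 3 per group: cells with a lentiviral hairpin against Phf5a (shPhf5a), cells with a hairpin against Paf1 (shPaf1) and cells with a control hairpin (shControl). The cells of all 3 groups were the Nanog-GFP (NG4) reporter line of the 129/Sv strain, kept in LIF on gelatin, and all had been through 72 h of puromycin at 2 μg/mL. Phf5a is a subunit of the SF3b splicing complex, and Paf1 is a core subunit of a complex that accompanies elongating RNA polymerase II. The titles give 1 hairpin name per knockdown, so that effects of the target and of the hairpin cannot be told apart.

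In the embryo, FGF4 from epiblast precursors signals through FGF receptors to raise Gata6, which antagonises Nanog, and Gata4, Sox17 and Sox7 follow as the primitive endoderm forms. The layer later divides into visceral endoderm, which takes up maternal nutrients, and parietal endoderm, which lays down a basement membrane. Megalin (the product of Lrp2) and cubilin (Cubn) are the scavenger receptors of visceral endoderm, Dab2 links them to clathrin, and Pdgfra is a receptor tyrosine kinase that marks the lineage from its start. Values below are log2 expression values as deposited, and a difference of 1 is a doubling. A gene is said to have risen or fallen where limma gave an adjusted p under 0.05 over all genes (Benjamini-Hochberg).

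Promoter windows were at hand for 6 of the 10 members, and not for Gata6, Gata4, Sox17 and Sox7. Of those 6, Dab2, Pdgfra and Lrp2 were higher in both knockdowns. They are shown by the 250 bases before their annotated RefSeq starts (GRCm38.p6, strand of the gene). Capitals mark the letters GATA, ACAAT or TGTTTNC on either strand, cores read by GATA, SOX and FOXA factors. Dab2 has 2 annotated starts, and the array does not say which was used.
Dab2, upstream start, chr15:6299539-6299788, plus strand: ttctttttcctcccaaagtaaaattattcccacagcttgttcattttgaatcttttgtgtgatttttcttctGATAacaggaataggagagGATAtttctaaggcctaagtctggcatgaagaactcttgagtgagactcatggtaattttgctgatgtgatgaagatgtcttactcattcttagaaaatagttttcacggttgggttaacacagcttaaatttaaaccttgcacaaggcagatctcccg
Dab2, downstream start, chr15:6386498-6386747, plus strand: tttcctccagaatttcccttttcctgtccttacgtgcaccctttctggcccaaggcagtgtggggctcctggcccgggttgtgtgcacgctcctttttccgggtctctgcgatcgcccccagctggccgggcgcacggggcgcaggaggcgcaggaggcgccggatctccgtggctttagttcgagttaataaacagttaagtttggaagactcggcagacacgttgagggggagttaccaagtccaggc
Pdgfra, chr5:75152001-75152250, plus strand: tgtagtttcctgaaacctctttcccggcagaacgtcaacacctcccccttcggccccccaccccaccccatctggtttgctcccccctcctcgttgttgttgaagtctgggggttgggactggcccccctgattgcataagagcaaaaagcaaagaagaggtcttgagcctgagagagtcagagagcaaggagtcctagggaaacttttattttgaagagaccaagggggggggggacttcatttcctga
Lrp2, chr2:69586030-69586279, minus strand: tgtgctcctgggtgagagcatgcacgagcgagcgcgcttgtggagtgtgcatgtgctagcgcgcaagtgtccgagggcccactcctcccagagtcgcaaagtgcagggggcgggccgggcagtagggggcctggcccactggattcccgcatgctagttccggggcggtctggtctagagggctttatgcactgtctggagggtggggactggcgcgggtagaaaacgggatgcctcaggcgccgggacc
Among these 4 windows the upstream Dab2 window alone held a match, with GATA at 178 and at 159 bases before the start, both on the strand of the gene. Windows of members that did not pass held matches too: 1 of 2 Hnf4a windows had 2 GATA, 1 ACAAT and 1 TGTTTNC, 1 of 3 Foxa2 windows had 2 GATA, and the Cubn window had none. The letters GATA occur on either strand in 53.6% of 32851 RefSeq windows of this length, ACAAT in 27.7% and TGTTTNC in 17.8%. The windows also differed in base composition, with 36.8% G and C at the upstream and 60% at the downstream Dab2 start, 54.4% at Pdgfra and 66.4% at Lrp2. No binding data are part of this series, and a match is a description of these letters.

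The hairpins and the arrays set the frame for what follows. Phf5a differed by -1.24 in shPhf5a against shControl (SE 0.16, adjusted p = 0.00024) and Paf1 by -1.39 in shPaf1 (SE 0.08, adjusted p = 1.73e-06). Phf5a was also lower in shPaf1 by 0.57 and Paf1 in shPhf5a by 0.25 (limma, adjusted p = 0.0183 and 0.0267). The first call held in 15 of 18 alternative fits and the second in 13 of 18 (adjusted p up to 0.0742 and 0.0867). The shPhf5a replicate 2 array stood apart within its group: over all genes the SD of its differences from the shControl mean was 0.32, against 0.46 and 0.43 in shPhf5a replicates 1 and 3. Phf5a itself was at 55.9% of the shControl mean on that array, against 34.4% and 39.6% on the other shPhf5a arrays. Array weights estimated by limma were lowest for shPhf5a replicates 2 and 1 (0.35 and 0.46), against 1.81 for shPhf5a replicate 3. Results on shPhf5a are also given without replicate 2, with the value without replicate 1 beside those that it moved the other way by over 1.5 times. Of the genes that define pluripotent stem cells, Nanog averaged 12.26, 11.67 and 12.50 in shPhf5a, shPaf1 and shControl, and Sox2 averaged 11.74, 11.56 and 11.62. In such bulk samples fewer cells of a type and less RNA per cell cannot be told apart.

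Knockdown of Phf5a was followed by rises of Gata6, Dab2, Lrp2 and Pdgfra, and by a small rise of Sox7. Those 5 of 10 members were called higher and 0 lower, where 16.7% of all genes were called higher and 20.7% lower (limma; at an unadjusted p under 0.05 the counts were also 5 and 0). In the same 5 genes all shPhf5a arrays lay above all shControl arrays, which held for 19.9% of all genes, and in 0 members did they lie below (25.9% of all genes). The median difference of the 10 members was 0.30, against -0.03 for all genes. Without shPhf5a replicate 2 the count was 6 higher and 0 lower, since Gata4 and Cubn passed and Sox7 did not, and without shPhf5a replicate 1 it was 4 higher and 0 lower, since Sox7 did not pass.

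Knockdown of Paf1 was followed by rises of Gata6, Lrp2, Pdgfra, Gata4 and Dab2. That again made 5 of 10 higher and 0 lower, where 18% of all genes were called higher and 17.8% lower (limma; 5 and 1 at an unadjusted p under 0.05, the 1 being Hnf4a). All shPaf1 arrays lay above all shControl arrays in those 5 genes (23.2% of all genes did so) and below them in Cubn and Hnf4a (25% of all genes). The median difference of the members was 0.24, against -0.01 for all genes. Both knockdowns were set against the same 3 shControl arrays, so that their differences from shControl are not independent of each other.

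**Figure D1:**
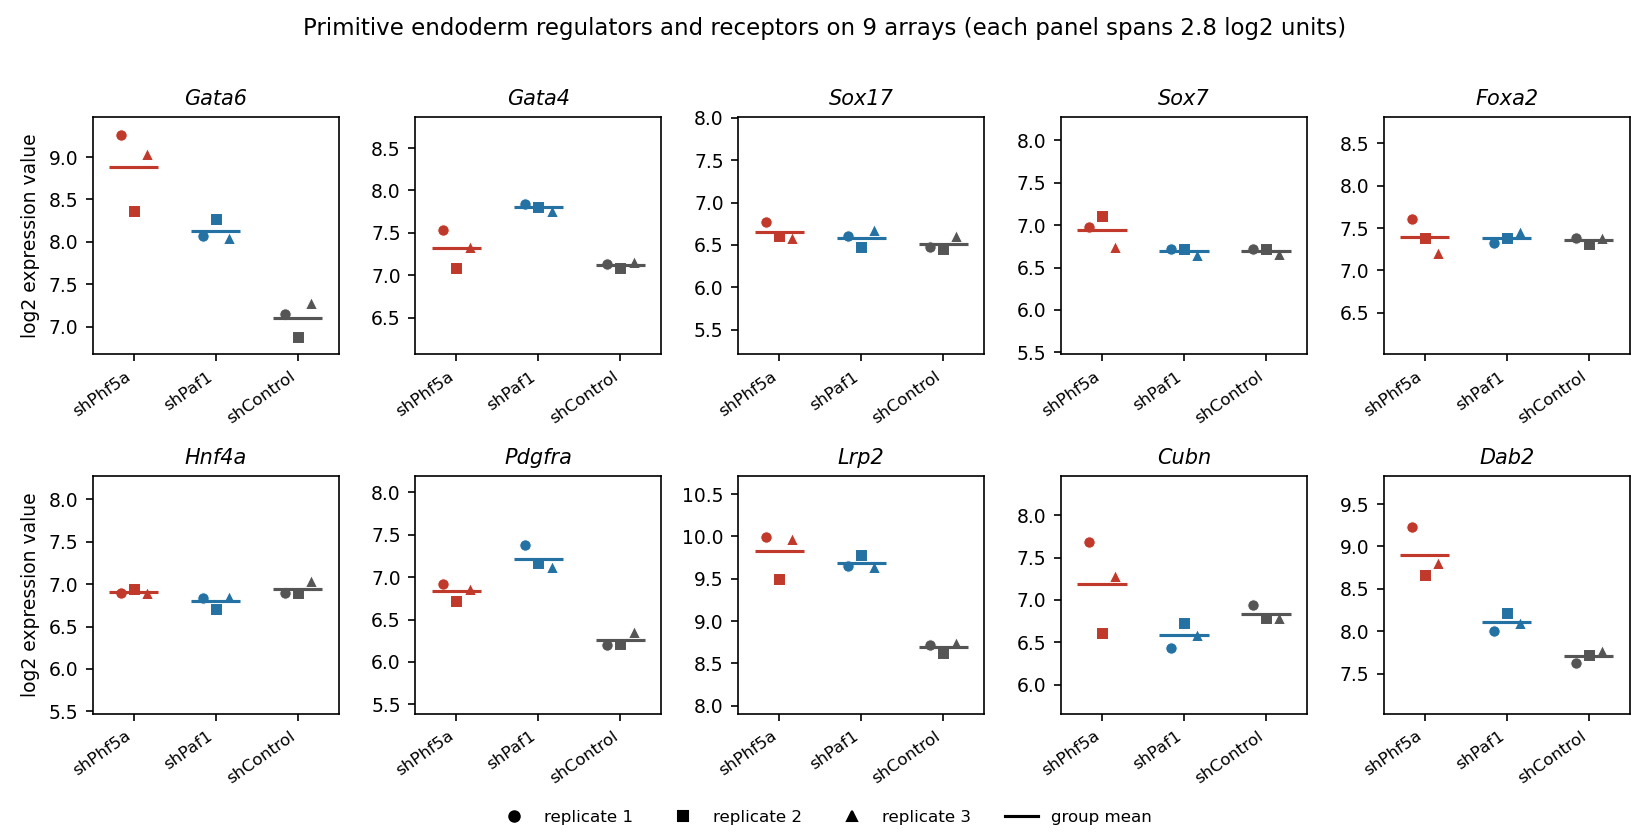
Log2 expression value of each of the 10 genes on each array, in shPhf5a, shPaf1 and shControl. Points are arrays, their shape gives the replicate number, lines are group means and all panels span the same range of log2 units. Gata6, Pdgfra, Lrp2 and Dab2 lie above shControl on all 6 knockdown arrays, Gata4 does so on all 3 shPaf1 arrays, and Sox17, Foxa2 and Hnf4a stay within a narrow band.

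Gata6, the GATA factor at the head of the primitive endoderm programme, showed the largest difference among the members in shPhf5a, and in shPaf1 it stood beside Lrp2 and Pdgfra. It stood at 9.26, 8.36 and 9.03 in shPhf5a replicates 1, 2 and 3, at 8.07, 8.27 and 8.05 in shPaf1, and at 7.15, 6.88 and 7.28 in shControl. No knockdown array reached down to the controls, and the lowest shPhf5a array still exceeded the highest shPaf1 array. Gata6 rose by 1.78 in shPhf5a (SE 0.20, 3.44-fold, adjusted p = 0.000109), a difference larger in size than that of 99.6% of genes, and by 1.03 in shPaf1 (SE 0.20, 2.04-fold, adjusted p = 0.00263). The rise in shPhf5a was 2.05 without replicate 2.

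Gata4, the second GATA factor of the lineage, behaved otherwise. It measured 7.54, 7.08 and 7.34 in shPhf5a, 7.85, 7.81 and 7.75 in shPaf1, and 7.13, 7.08 and 7.15 in shControl. The shPaf1 arrays were tightly grouped above every other array, whereas shPhf5a replicate 2 lay among the controls. Gata4 rose by 0.68 in shPaf1 (SE 0.10, 1.602-fold, adjusted p = 0.000366), and its difference in shPhf5a was 0.20 (95% interval -0.02 to 0.41, adjusted p = 0.144). Without shPhf5a replicate 2 that difference was 0.32 and passed (adjusted p = 0.00415), and without shPhf5a replicate 1 it was 0.09 (adjusted p = 0.418). Gata4 also serves in heart muscle, of whose 7 measured markers 0 were called in either direction in either knockdown by limma. At an unadjusted p under 0.05, 1 was lower in each. Of all genes 16.7% were called higher and 20.7% lower in shPhf5a, and 18% and 17.8% in shPaf1. Mean levels of the heart markers ran from 6.22 to 6.37 in shPhf5a, 6.29 to 6.34 in shPaf1 and 6.31 to 6.43 in shControl.

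The SOX factors of endoderm moved little. Sox17, which in mouse is needed for endoderm to be maintained, measured 6.77, 6.61 and 6.58 in shPhf5a, 6.61, 6.47 and 6.68 in shPaf1, and 6.48, 6.45 and 6.61 in shControl, so that the groups overlapped. Its differences from shControl were 0.14 in shPhf5a (95% interval -0.03 to 0.31) and 0.08 in shPaf1 (-0.09 to 0.24), and neither passed (adjusted p = 0.183 and 0.512). Neither passed in any of 17 alternative fits.

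Sox7, a relative of Sox17, measured 6.97, 7.10 and 6.74 in shPhf5a, 6.71, 6.71 and 6.64 in shPaf1, and 6.71, 6.71 and 6.66 in shControl. The shPhf5a arrays were higher by a narrow margin, and 4 of the other arrays carried 1 identical value. Sox7 rose by 0.24 in shPhf5a (SE 0.08, 1.18-fold, adjusted p = 0.0427), a call that held in 4 of 18 alternative fits, with adjusted p from 0.00241 to 0.187. In shPaf1 its difference was -0.01 (95% interval -0.19 to 0.18, adjusted p = 0.967).

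Sox7 and Sox17 are also genes of endothelium, whose markers moved in both directions. Of 8 measured, 3 were higher and 2 lower in shPhf5a (16.7% and 20.7% of all genes). In shPaf1 2 were higher and 1 lower (18% and 17.8% of all genes). The angiopoietin receptor gene Tek rose by 1.09 (SE 0.10) and the secreted factor gene Egfl7 fell by 1.01 (SE 0.08) in shPhf5a. The third gene of the SOX group, Sox18, fell by 0.62 (SE 0.12) in shPhf5a and by 0.38 (SE 0.12) in shPaf1. Cdh5 rose in both, by 0.67 and 0.53 (SE 0.17 each). Pecam1 rose by 0.26 in shPhf5a (SE 0.06), and Kdr by 0.35 in shPaf1 (SE 0.10). The mean level of the 8 markers ran from 6.80 to 6.94 in shPhf5a, 6.85 to 6.86 in shPaf1 and 6.77 to 6.81 in shControl. Their part in the Sox7 value was not tested.

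Foxa2 and Hnf4a, forkhead and nuclear receptor regulators of visceral endoderm and later of liver, did not pass in either knockdown. Foxa2 measured 7.61, 7.38 and 7.21 in shPhf5a, 7.32, 7.38 and 7.46 in shPaf1, and 7.38, 7.31 and 7.38 in shControl. Its differences were 0.04 (95% interval -0.16 to 0.25) in shPhf5a and 0.03 (-0.17 to 0.23) in shPaf1. Hnf4a measured 6.90, 6.94 and 6.90 in shPhf5a, 6.84, 6.70 and 6.85 in shPaf1, and 6.90, 6.90 and 7.04 in shControl. It was the member with the least spread across shPhf5a arrays, and its shPaf1 arrays all lay slightly below the controls. The differences of Hnf4a were -0.03 in shPhf5a (adjusted p = 0.717) and -0.15 in shPaf1 (95% interval -0.28 to -0.02, adjusted p = 0.0762), where the shPaf1 value passed after quantile normalization (-0.19, adjusted p = 0.0321), after centring of each array (-0.17, adjusted p = 0.0466) and with array weights (-0.16, adjusted p = 0.0449).

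Relatives of these factors, some of them endoderm factors too, were followed as a list. Of 10 measured GATA, FOG, SOX, FOXA and HNF relatives, 4 were higher and 3 lower in shPhf5a (16.7% and 20.7% of all genes). In shPaf1 5 were higher and 2 lower (18% and 17.8% of all genes). The medians of the list were 0.00 and 0.25. Gata2, a factor of blood and trophoblast, rose by 2.84 (SE 0.14) in shPhf5a and 1.504 (SE 0.14) in shPaf1. Gata3, a trophoblast factor, rose by 1.22 and 0.42 (SE 0.08 each), and Foxa1, the paralogue of Foxa2, by 0.84 and 1.12 (SE 0.11 each). Zfpm1, which encodes the GATA cofactor FOG1, rose by 1.57 and 1.00 (SE 0.09 each), while Zfpm2, which encodes FOG2, a partner of Gata4 in mouse heart, rose only in shPaf1 (0.48, SE 0.07), with a difference between the knockdowns of -0.45 (adjusted p = 0.000801).

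Markers of trophectoderm, the other extraembryonic lineage, were followed beside Gata6. Of 11 measured, 10 were higher and 0 lower in shPhf5a by limma (16.7% and 20.7% of all genes). The counts were also 10 and 0 at an unadjusted p under 0.05. They were 7 and 0 without shPhf5a replicate 2, where Cdx2, Eomes and Tead4 did not pass (adjusted p = 0.0741, 0.112 and 0.0507). Elf5 did not pass in either knockdown (-0.03 in shPhf5a and -0.05 in shPaf1). Cdx2 was at 0.44 in shPhf5a, with arrays that overlapped shControl, and at 0.36 in shPaf1, where it did not pass (adjusted p = 0.0608). In shPaf1 6 of the markers were higher and 1 lower (18% and 17.8% of all genes). Their mean level ran from 8.12 to 8.38 in shPhf5a, 8.02 to 8.11 in shPaf1 and 7.20 to 7.28 in shControl. Hand1, a transcription factor of trophoblast giant cells, rose by 1.87 and 1.78 (SE 0.18 each). The largest rises were those of the keratin genes Krt18 (2.49 and 3.21, SE 0.19 each) and Krt8 (1.98 and 2.68, SE 0.21 each). Tfap2c rose by 0.87 in shPhf5a and fell by 0.30 in shPaf1 (SE 0.04 each). Ascl2 rose by 1.72 in shPhf5a (SE 0.14) and was at 0.01 in shPaf1. Whether the same cells carried both sets of transcripts cannot be read from these arrays.

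Pdgfra, the receptor for platelet-derived growth factors, measured 6.92, 6.71 and 6.87 in shPhf5a, 7.38, 7.16 and 7.12 in shPaf1, and 6.20, 6.21 and 6.35 in shControl. The 3 groups did not overlap, with shPaf1 highest. Pdgfra rose by 0.58 in shPhf5a (SE 0.08, 1.49-fold, adjusted p = 0.000406) and by 0.96 in shPaf1 (SE 0.08, 1.95-fold, adjusted p = 1.65e-05). Of 5 measured PDGF ligand and receptor genes, 3 were higher and 1 lower in shPhf5a (16.7% and 20.7% of all genes). In shPaf1 2 were higher and 1 lower (18% and 17.8% of all genes). Pdgfa rose by 0.23 and 0.31 (SE 0.05 each) and Pdgfb by 0.38 and 1.03 (SE 0.09 each) in shPhf5a and shPaf1, while Pdgfc fell by 0.55 and 0.82 (SE 0.12 each). Pdgfd rose in shPhf5a (0.50, SE 0.07) and was at 0.02 in shPaf1. The second receptor gene, Pdgfrb, did not pass (0.08 and 0.09, adjusted p = 0.312 and 0.247).

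Pdgfra is also a gene of fibroblasts. Of 9 fibroblast markers 0 were called higher and 0 lower in shPhf5a by limma (16.7% and 20.7% of all genes). At an unadjusted p under 0.05 the count there was also 0. In shPaf1 2 were called higher (18% of all genes), Dcn (0.57, SE 0.06) and Col1a1 (0.22, SE 0.07), and 0 lower (17.8%). Their mean level ran from 5.81 to 5.88 in shPhf5a, 5.99 to 6.06 in shPaf1 and 5.86 to 5.87 in shControl. The part of fibroblast transcripts in the shPaf1 value of Pdgfra was not tested.

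Lrp2, which encodes megalin, measured 9.996, 9.50 and 9.97 in shPhf5a, 9.65, 9.78 and 9.64 in shPaf1, and 8.72, 8.62 and 8.74 in shControl. All 6 knockdown arrays lay well above the controls, and the knockdowns overlapped each other. Lrp2 rose by 1.13 in shPhf5a (SE 0.12, 2.19-fold, adjusted p = 6.86e-05) and by 1.00 in shPaf1 (SE 0.12, 2.00-fold, adjusted p = 0.000114). Both calls held in all 18 alternative fits.

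Cubn, which encodes the partner receptor cubilin, was the most variable member. It measured 7.68, 6.60 and 7.29 in shPhf5a, 6.43, 6.72 and 6.59 in shPaf1, and 6.94, 6.79 and 6.79 in shControl. In shPhf5a 2 arrays lay above every control and replicate 2 lay below them all. Its difference was 0.35 in shPhf5a (95% interval -0.14 to 0.84, adjusted p = 0.254) and -0.26 in shPaf1 (-0.75 to 0.23, adjusted p = 0.436). Leaving out shPhf5a replicate 2 moved the first to 0.65 with adjusted p = 0.00218, and leaving out shPhf5a replicate 1 moved it to 0.11 with adjusted p = 0.693. The second passed when the fit held the shPaf1 and shControl arrays alone (adjusted p = 0.0397). Amn, which encodes the anchor that carries cubilin to the membrane, was at -0.15 and -0.20 and did not pass (adjusted p = 0.196 and 0.102).

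Dab2, the clathrin adaptor that binds the tails of megalin-type receptors, measured 9.23, 8.66 and 8.81 in shPhf5a, 7.997, 8.22 and 8.10 in shPaf1, and 7.63, 7.71 and 7.77 in shControl. The 3 groups did not overlap, and shPhf5a was highest. Dab2 rose by 1.19 in shPhf5a (SE 0.13, 2.29-fold, adjusted p = 8.08e-05). The rise of 0.40 in shPaf1 was a weaker call (SE 0.13, 1.32-fold, adjusted p = 0.0331), which was lost without shControl replicate 1, 2 or 3 or shPaf1 replicate 2 or 3 (adjusted p from 0.059 to 0.12) and after quantile normalization (adjusted p = 0.0703). Its relative Dab1, the reelin signalling adaptor of neurons, fell by 0.60 in shPhf5a (SE 0.12) and was at 0.10 in shPaf1.

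Dab2 is also read from macrophages. Of 8 macrophage markers 0 were higher and 1 lower in shPhf5a by limma (16.7% and 20.7% of all genes). In shPaf1 1 was higher and 0 lower (18% and 17.8% of all genes). At an unadjusted p under 0.05 the counts were 0 and 1 in shPhf5a, and 2 and 0 in shPaf1. The 1 called gene was in both cases Cd68 (-0.42 and 0.44, SE 0.10 each). The mean level of the 8 markers ran from 6.06 to 6.20 in shPhf5a, 6.30 to 6.37 in shPaf1 and 6.20 to 6.32 in shControl. The other markers did not pass in either knockdown. Among them Ptprc, Csf1r and Adgre1 were at -0.04, -0.18 and -0.11 in shPhf5a, and at -0.02, 0.22 and -0.05 in shPaf1. All shPaf1 arrays of Csf1r lay above all shControl arrays. The part of macrophage transcripts in the Dab2 values was not tested.

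The endocytic genes that work with these receptors were followed from a list of 13 measured members. In shPhf5a 6 were higher and 3 lower (16.7% and 20.7% of all genes), with a median of 0.06. In shPaf1 6 were higher and 0 lower (18% and 17.8% of all genes), with a median of 0.13. At an unadjusted p under 0.05 by limma the shPaf1 counts were 7 and 1. Lrp1, the widely used relative of Lrp2, rose by 0.94 and 0.90 (SE 0.09 each), and Myo6, the motor that carries endocytic vesicles, by 0.79 and 0.52 (SE 0.09 each). Lrpap1, whose product RAP is the chaperone of this receptor family, rose by 0.67 in shPhf5a (SE 0.05) and was at 0.13 in shPaf1 (adjusted p = 0.0714). The AP2 adaptor subunit gene Ap2a1 rose by 0.52 in shPaf1 (SE 0.05) and was at -0.01 in shPhf5a.

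**Figure D2:**
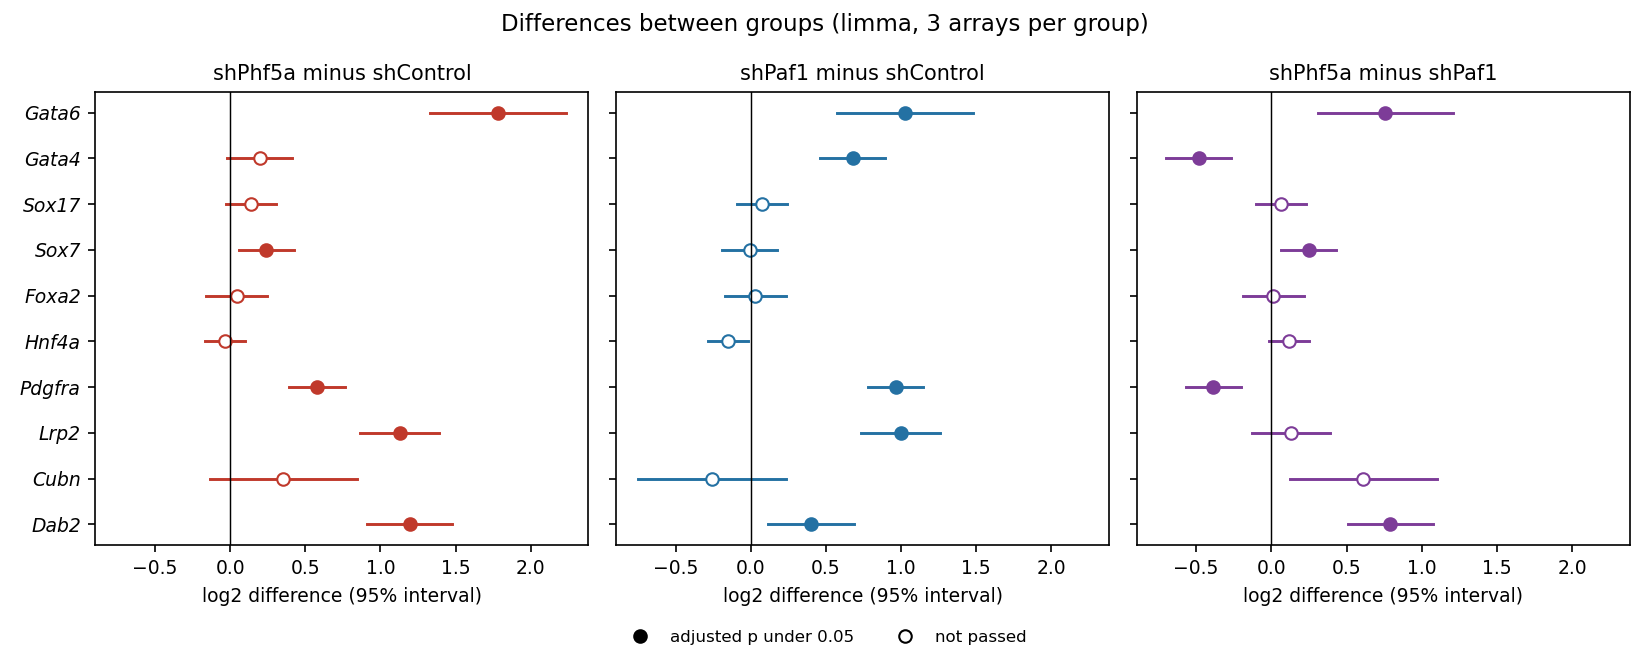
Log2 difference of each member between groups with its 95% interval from limma, 3 arrays per group, filled where the adjusted p is under 0.05. Gata6 is the highest point in shPhf5a minus shControl (1.78) and lies beside Lrp2 in shPaf1 minus shControl (1.03 and 1.00), and in shPhf5a minus shPaf1 Gata6 and Dab2 lie right of 0 (0.76 and 0.79) while Gata4 and Pdgfra lie left of it (-0.48 and -0.39).

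The direct comparison asked where the responses to the hairpins differed. In shPhf5a minus shPaf1, 3 members were higher (12.7% of all genes) and 2 lower (16.3% of all genes). The arrays did not overlap in 4 members that were higher, Hnf4a among them (16.3% of all genes), and in 2 that were lower (21.3% of all genes). Dab2 was higher in shPhf5a by 0.79 (SE 0.13, adjusted p = 0.00119), Gata6 by 0.76 (SE 0.20, adjusted p = 0.0178) and Sox7 by 0.25 (SE 0.08, adjusted p = 0.0473). Gata4 was lower in shPhf5a, at -0.48 (SE 0.10, adjusted p = 0.00412), and so was Pdgfra, at -0.39 (SE 0.08, adjusted p = 0.00584). The GATA pair thus had differences of opposite sign between the knockdowns, and so did the adaptor Dab2 and the receptor Pdgfra.

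The remaining 5 members did not pass in the direct comparison. Lrp2 differed by 0.13 (95% interval -0.13 to 0.39, adjusted p = 0.491), Sox17 by 0.06 (-0.10 to 0.23), Foxa2 by 0.01 (-0.19 to 0.22) and Hnf4a by 0.12 (-0.02 to 0.25). Cubn differed by 0.61 (0.12 to 1.10, adjusted p = 0.0637). Without shPhf5a replicate 2 both Cubn (0.90, adjusted p = 0.000447) and Lrp2 (0.29, adjusted p = 0.00579) passed, and without shPhf5a replicate 1 they were at 0.36 (adjusted p = 0.17) and 0.04 (adjusted p = 0.847). The call of Gata6 was lost without shPhf5a replicate 1 or 3 or shPaf1 replicate 1 or 3 (adjusted p from 0.0521 to 0.0694), and that of Sox7 held in 4 of 18 alternative fits. Without shPhf5a replicate 2 Sox7 did not pass (0.16, adjusted p = 0.114).

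The signal that specifies primitive endoderm was followed in 6 measured genes. Of these 2 were higher and 1 lower in shPhf5a (16.7% and 20.7% of all genes). In shPaf1 5 were higher and 1 lower (18% and 17.8% of all genes). Fgf4, the ligand that stem cells make, fell by 0.24 in shPhf5a (SE 0.08, adjusted p = 0.0438) and by 0.71 in shPaf1 (SE 0.08, adjusted p = 0.000102). Its receptor genes rose, Fgfr1 by 0.76 and 0.77 (SE 0.06 each) and Fgfr2, the receptor marking early primitive endoderm, by 1.31 and 0.51 (SE 0.05 each). Fgfr2 differed between the knockdowns by 0.80 (adjusted p = 7.79e-06). The signal carriers Ptpn11, Sos1 and Grb2 rose in shPaf1 (0.62, 0.31 and 0.25) and did not pass in shPhf5a (0.05, -0.11 and 0.03). Nanog, the antagonist of Gata6, fell by 0.25 in shPhf5a and by 0.84 in shPaf1 (SE 0.06 each), with a difference of 0.59 between the knockdowns (adjusted p = 5.43e-05). Pou5f1 was lower by 0.59 and 0.33, the second call being lost in 7 of 9 fits that left out 1 array (adjusted p up to 0.11) and with all probe sets tested. Of 14 pluripotency genes, Fgf4 again among them, 3 were higher and 8 lower in shPhf5a (16.7% and 20.7% of all genes). In shPaf1 1 was higher and 9 lower (18% and 17.8% of all genes). Those that rose in shPhf5a were Tbx3, Sall4 and Tfcp2l1 (0.67, 0.49 and 0.45). Sall4 also rose in shPaf1 (0.34), where Tbx3 fell by 0.36.

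Parietal and visceral endoderm, the layers that primitive endoderm gives rise to, were followed by a list each, and the difference between the lists was not tested. Of 12 parietal endoderm genes, 7 were higher and 1 lower in shPhf5a (16.7% and 20.7% of all genes), with a median of 0.29. In shPaf1 8 were higher and 0 lower (18% and 17.8% of all genes), with a median of 0.56. At an unadjusted p under 0.05 by limma the shPaf1 counts were also 8 and 0. Snai1, a zinc finger repressor, rose by 1.64 and 1.16 (SE 0.13 each). Nid1, a basement membrane linker, rose by 1.18 in shPaf1 (SE 0.10) and was at 0.11 in shPhf5a, and the difference between them was -1.07 (adjusted p = 5.5e-05). Without shPhf5a replicate 2 the Nid1 difference in shPhf5a was 0.23 and passed by limma (adjusted p = 0.0234). The collagen IV genes rose in both, Col4a1 by 0.44 in shPhf5a and 1.06 in shPaf1 (SE 0.10 each), and Col4a2 by 0.41 and 1.08 (SE 0.11 each). Lama1, a laminin chain gene, fell by 0.38 in shPhf5a (SE 0.06) and was at 0.04 in shPaf1. Thbd, Pth1r and Fst did not pass in either knockdown. They were at -0.05, -0.10 and -0.14 in shPhf5a, and at 0.11, -0.15 and 0.15 in shPaf1.

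Of 18 visceral endoderm genes, 2 were higher and 2 lower in shPhf5a (median -0.10), and 3 higher and 2 lower in shPaf1 (median -0.04). Over all genes 16.7% were called higher and 20.7% lower in shPhf5a, and 18% and 17.8% in shPaf1. The genes that rose in both were Apob, a lipoprotein component (1.03 and 0.62, SE 0.10 each), and Otx2 (0.39 and 1.14, SE 0.09 each), a factor that the primed epiblast also uses. Rbp4 fell in both, by 0.34 and 0.21 (SE 0.06 each). Spink1 fell by 0.56 in shPaf1 (SE 0.12) and did not pass in shPhf5a (-0.24). Without shPhf5a replicate 2 the Spink1 difference in shPhf5a was -0.40 and passed by limma (adjusted p = 0.00289). The secreted products Afp, Ttr and Apoa1, named after their values were seen, did not pass (-0.17, -0.11 and -0.04 in shPhf5a, and -0.15, 0.01 and -0.04 in shPaf1). Apoe, another secreted apolipoprotein gene, fell by 0.20 in shPhf5a and rose by 0.39 in shPaf1 (SE 0.05 each).

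**Figure D3:**
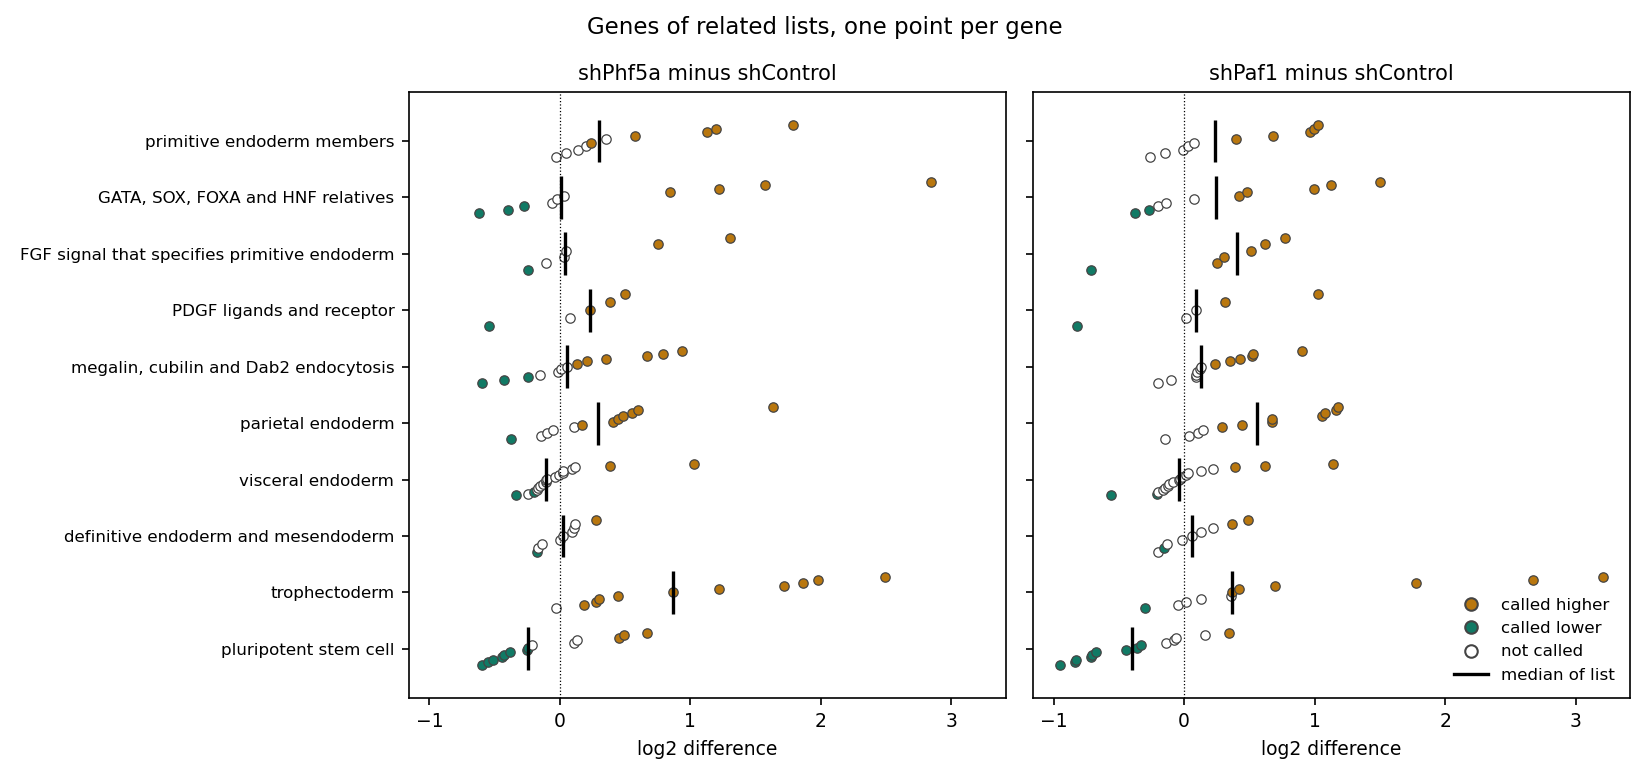
Log2 difference from shControl of every measured gene of 10 lists, 1 point per gene, orange where called higher, green where called lower and open where not called, with the median of each list as a bar. Parietal endoderm genes lie mostly right of 0 (medians 0.29 and 0.56), visceral endoderm genes around it (-0.10 and -0.04), and pluripotency genes mostly left of it (-0.24 and -0.40).

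The genes whose course over the 9 arrays was most like that of a member were sought among 17420 genes, by the root-mean-square difference after subtraction of each gene's shControl mean. Nearest to Gata6 were P4ha2, a collagen prolyl hydroxylase subunit gene (0.15), Klhl26 (0.15), Pros1, which encodes the anticoagulant protein S (0.17), and Cald1, which encodes the actin-binding caldesmon (0.17). Nearest to Dab2 were Atg9b, an autophagy gene (0.10), Dlx3, a homeobox gene of placenta and skin (0.11), the growth factor gene Bmp7 (0.11) and Gata3 (0.11). Nearest to Lrp2 were Tram1l1 (0.07), Myof, which encodes a membrane repair ferlin (0.08), Osbpl5 (0.08) and Cpne2 (0.09). Such likeness is a description of 9 arrays in 3 groups.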

How the data were processed

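The authors deposited 1 log2 expression value per probe set for each of 9 arrays, made from total RNA with whole-transcript kits per the labels' protocols. Of software, normalization and log base the labels say nothing; log2 was inferred from the range (4.35 to 13.7) and from array medians of 6.22 to 6.31. No batch was tested: scan dates and detection calls were not analysed here. Background signal shrinks the differences of dim genes, and the number of arrays limits precision.

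GEO's platform table gave 1 symbol for 23521 of 33793 probe sets, and the brightest per gene was kept (22180 genes). Groups and replicates came from titles. Nothing says that replicates were separate cultures, so that p-values measure spread that may be technical. The test was limma 3.58.1 in R 4.3.3 (lmFit, eBayes) over all 9 arrays, with 3 contrasts and Benjamini-Hochberg adjustment over all genes, tested on simulated data. Members and lists were chosen with earlier results of these data known. Of 139 genes in 14 lists, 131 were measured.

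Named were the members, Phf5a, Paf1, Pou5f1, Sox2 and Nanog, up to 4 called genes per list and comparison, any gene of lists of 8 or fewer, and the 4 nearest genes of the 3 members with the largest differences. Amn, Afp, Ttr, Apoa1, Lama1, Sall4, Thbd, Pth1r, Fst, Cdx2, Elf5 and Tead4 were named after their values were seen. A planned placement among olfactory receptor levels was left out, since levels of different probe sets are not comparable. Alternatives were quantile normalization, array centring, genes above the median, mean of probe sets, all probe sets, trended and robust variance, array weights, the 6 arrays of a comparison, a replicate block and leaving out each array. List counts without shPhf5a replicate 2 were chosen after seeing the data.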

Additional observations from a re-analysis of the deposited data

How the results depend on the processing

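Over 18 alternative fits (17 for Sox17), 11 of the 15 called differences of members passed in every one, and no called difference turned its direction. The exceptions were Sox7 in shPhf5a against shControl and against shPaf1, Dab2 in shPaf1 against shControl, and Gata6 in shPhf5a against shPaf1. Of the 15 not called, 9 passed in no alternative; the others were Gata4, Cubn and Hnf4a against shControl, and Cubn and Lrp2 between the knockdowns. The count of members lower in shPaf1 against shControl, 0, became 1 after quantile normalization, array centring and with array weights (Hnf4a), and 1 when the fit held the 6 shPaf1 and shControl arrays alone (Cubn). Leaving out 1 array gave 1 to 4 members higher in shPhf5a than in shPaf1, against 3 reported, with 1 without shPhf5a replicate 1, shPaf1 replicate 1 or shPaf1 replicate 3. It gave 4 to 6 members higher in shPhf5a and 4 to 5 in shPaf1 against shControl. The cause of these changes was not tested.

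Replicate numbers did not pair the arrays: deviations of arrays with the same number correlated between -0.06 and 0.11, and in 8 of 18 cases an array correlated best with its own number. With the replicate number as a block, 8210, 7858 and 6255 genes were called in shPhf5a and shPaf1 against shControl and between the knockdowns, against 8306, 7930 and 6430 without it, and Dab2 in shPaf1 had adjusted p = 0.0563. Of 78 list counts, 72 stayed within 1.5 times without shPhf5a replicate 2, and the other 6 moved by 1 or 2 genes. The 78 include counts of shPaf1 against shControl, whose differences contain no shPhf5a array and whose calls could move only through the shared spread. Among the 72, the count of trophectoderm genes higher in shPhf5a went from 10 to 7.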

Other observations

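Genes of definitive endoderm and mesendoderm, which share Foxa2 and Sox17 with the primitive endoderm, were followed as a list too. Of 9 measured, 1 was higher and 1 lower in shPhf5a (16.7% and 20.7% of all genes). In shPaf1 2 were higher and 1 lower (18% and 17.8% of all genes). The medians of the list were 0.02 and 0.06. Foxh1, a partner of Smads in Nodal signalling, rose by 0.49 in shPaf1 (SE 0.08) and was at -0.17 in shPhf5a, and the difference between the knockdowns was -0.66 (adjusted p = 0.000252). Without shPhf5a replicate 2 the Foxh1 difference in shPhf5a was -0.26 and passed by limma (adjusted p = 0.00473). Eomes, a T-box factor of mesendoderm and trophoblast, rose by 0.28 in shPhf5a (adjusted p = 0.0496, which was 0.112 without shPhf5a replicate 2) and by 0.36 in shPaf1 (adjusted p = 0.0147).

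Sox7, Foxa2 and Hnf4a each had 1 value that was identical to the last deposited digit on 4 of the 9 arrays, and Sox17 on 3. Identical values on 4 or more arrays occurred in 1805 genes (8.14% of those tested). For such genes the spread between arrays, on which the test rests, is partly made of repeated values.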
